A study of Mus musculus with 92 samples.

Results

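The comparison set 20 single cells that the authors' annotation names Gran-2 against 15 cells that it names Myelo-2. All 35 came from 1 sorted bone marrow population, CD11b+ GMP-P, and were chosen by that sort and by their annotated state. They were 35 of the 47 cells of the sort and of 92 cells in the series, whose other 45 cells were GMP, the granulocyte-monocyte progenitor sort. The other CD11b+ GMP-P cells were 4 Gran-1, 3 Myelo-1, 3 Myelo-4, 1 Mono and 1 Multi-Lin. Every cell carried the same genotype, homozygous Gfi1-R412X (Gfi1-R412X/R412X), on the C57BL/6 strain, and 0 wild-type cells were included. The labels give no age and no animal for a cell, and they do not describe how the states were assigned. Marrow from the hindlimbs was enriched for CD117, sorted by flow cytometry, captured on a Fluidigm C1 chip and made into SMARTer cDNA. The deposited values are log2(TPM + 1), where TPM is a share of transcripts corrected for transcript length.

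Neutrophils are built in the marrow from dividing precursors that make their granules in waves. Primary (azurophil) granules come first and carry myeloperoxidase and serine proteases such as neutrophil elastase. Specific granules follow, with lactoferrin, cathelicidin and neutrophilic granule protein, and gelatinase granules and secretory vesicles come last, as division stops. GFI1 is a zinc finger repressor needed for this lineage, and GFI1 mutations occur in people with neutropenia, a shortage of neutrophils.

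The labels put both states in 1 sort and name no animals or separate captures, and cells are not replicates of a condition. No test of the states was therefore made, and differences are descriptions of these 35 cells. The states had also been named before deposit, in a way not given in the sources used here, so expression of the same genes may have set the grouping. Read counts per cell are unknown, and the number of genes detected (above 0) stands in for depth. It ran from 2629 to 5743 in Gran-2 cells, with a median of 4595, and from 1993 to 3257 in Myelo-2 cells, with a median of 2936. Only 2 Gran-2 cells, with 2629 and 3131 genes, lay within the Myelo-2 range. Depth and state therefore cannot be told apart for most of the genes that differ. No pair of the 35 cells held identical values.

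The genes that mark the states set them apart. Elane, neutrophil elastase, had 15870 to 54245 TPM in Gran-2 cells, with a median of 36043, and 1.64 to 7821 TPM in Myelo-2 cells, with a median of 4. The ranges did not overlap. Mpo, myeloperoxidase, had 1382 to 42598 TPM in Gran-2 cells (median 18060) and 0.70 to 2774 TPM in Myelo-2 cells (median 3.21). One Myelo-2 cell, cell 52, was inside the Gran-2 range for Mpo, and the next highest had 53.9 TPM. Ltf, lactoferrin, had 0 to 141 TPM in Gran-2 cells (median 0.32) and 49.6 to 21925 TPM in Myelo-2 cells (median 7394). Each state had 1 cell in the stretch where the 2 ranges of Ltf met. Ngp, neutrophilic granule protein, had 0.59 to 4092 TPM in Gran-2 cells (median 84.2) and 17182 to 142856 TPM in Myelo-2 cells (median 88800), with no overlap.

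Across all genes the contrast was one-sided. Compared were 7334 genes, each detected in 25% or more of Gran-2 or of Myelo-2 cells. Of these, 3756 (51.2%) had a mean log2(TPM + 1) at least 1 higher, or 2-fold, in Gran-2 cells, and 192 (2.62%) had one at least 2-fold higher in Myelo-2 cells. The remaining 3386 genes lay within 2-fold, and the median difference was 1.04. Differences of 8-fold or more were seen for 806 genes in favour of Gran-2 and 22 in favour of Myelo-2. Counting only the 240 genes above 0 in every one of the 35 cells, 120 were at least 2-fold higher in Gran-2 and 17 in Myelo-2, with a median of 1.02. Of all calls, 95.1% were higher in Gran-2. That share was 73.9% with the same number of genes kept in every cell, 76.3% with the cells scaled to equal medians of widely detected genes and 82.8% for the log2 of mean TPM. It was 66.8% between the 5 Gran-2 cells with the fewest genes and the 5 Myelo-2 cells with the most, and 61.3% between the 2 Gran-2 cells inside the Myelo-2 gene range and all Myelo-2 cells. In the remaining settings the share ran from 90.7% to 95.7%. The low end was TPM rescaled to the genes outside the granule and S100 lists, with a median difference of 0.94. The counts of every list below are best read against the 51.2% and 2.62% of all genes, and list medians against the median of all genes, 1.04.

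**Figure D1:**
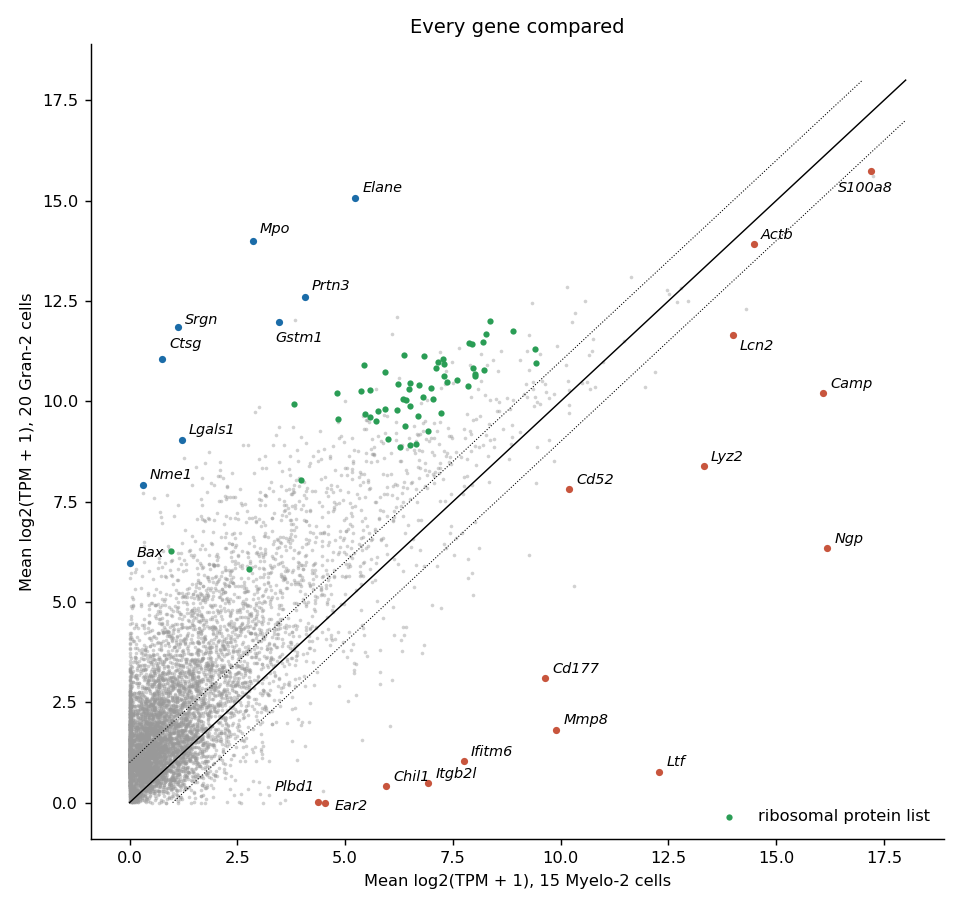
Mean log2(TPM + 1) of each of the 7334 genes in the 20 Gran-2 cells (vertical axis) and the 15 Myelo-2 cells (horizontal axis), 1 point a gene. The solid line marks equal means and the dotted lines a 2-fold difference. Blue points are named genes higher in Gran-2, red points named genes higher in Myelo-2 and green points the ribosomal protein list. Most points lie above the line, with 3756 genes past the upper dotted line and 192 past the lower.

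In 8 genes (0.109% of those compared) every Gran-2 cell was above every Myelo-2 cell. They were the primary granule genes Elane, Prtn3, Ctsg and Srgn, the ribosomal protein genes Rps6, Rpl13a and Rps27a, and Hsp90ab1, a cytosolic chaperone. In 4 genes (0.0545%) every Myelo-2 cell was above every Gran-2 cell: Ngp, Camp, Lcn2 and S100a8. The same 12 genes kept this separation when only the 1993 highest genes of each cell were counted. That setting leaves the kept values as they are and sets the rest to 0. For genes this abundant in the higher state it could hardly undo the separation, so it is no check on depth. With TPM rescaled to the genes outside the granule and S100 lists, Ctsg, Elane and Srgn kept it in one direction. In the other direction Actb, Myh9, Pglyrp1 and S100a9 joined the 4.

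Of the primary granule list, 9 of 13 genes compared were at least 2-fold higher in Gran-2, 2 in Myelo-2 and 2 within, with a median difference of 7.33. The list also holds Gstm1, described below, so its counts and shares are not of granule proteins alone. Of the 15 genes listed, 14 were in the table and 1 of those was detected in too few cells. Ctsg, cathepsin G, had 168 to 5379 TPM in Gran-2 cells (median 2583) and 0 to 3.87 TPM in Myelo-2 cells (median 0.49). Srgn, the serglycin core that holds granule proteases, had 1279 to 8821 TPM in Gran-2 cells (median 4034) and 0 to 31.1 TPM in Myelo-2 cells (median 0.64). Both left a wide gap between the states. Prtn3, proteinase 3, had 2349 to 12249 TPM in Gran-2 cells (median 6568) and 0 to 1971 TPM in Myelo-2 cells (median 1.61), so its gap was narrow. The largest mean difference in favour of Gran-2 of any gene compared was that of Mpo, at 11.14, ahead of Srgn (10.72), Ctsg (10.29) and Elane (9.84). Gstm1, a glutathione transferase placed in this list, differed by 8.50, Prss57, a serine protease, by 7.33, Cst7, a cathepsin inhibitor, by 6.80 and Ms4a3, a membrane protein of this lineage, by 5.57.

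The lysozyme genes went the other way. Lyz2 had 2.96 to 6776 TPM in Gran-2 cells (median 792) and 318 to 37573 TPM in Myelo-2 cells (median 17840), a difference of -4.93. Lyz1 differed by -4.91. The 2 paralogs are near-identical and can share reads, so they do not count as independent. Lysozyme is stored in more than 1 granule type.

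**Figure D2:**
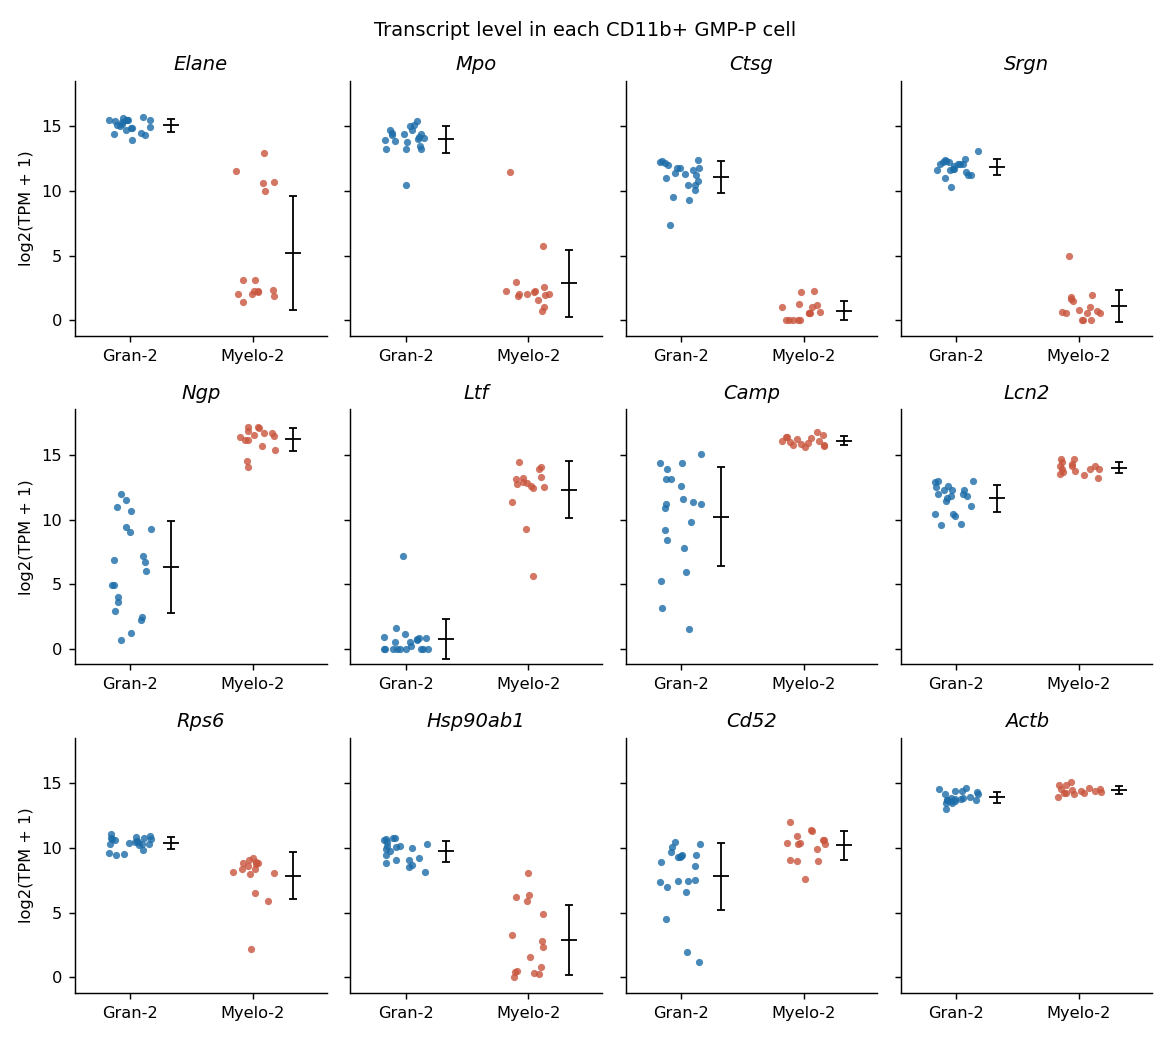
Level of 12 genes in each cell, in log2(TPM + 1). Gran-2 cells (20, blue) are on the left of each panel and Myelo-2 cells (15, red) on the right, with 1 point a cell and the mean ± SD over cells beside them. Elane splits the Myelo-2 cells into 5 above 10 TPM and 10 below, Camp and Ngp are spread over several log2 units within Gran-2, and Actb differs little.

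Specific granule genes were the mirror image. Of 20 compared (28 listed, 25 in the table), 0 were at least 2-fold higher in Gran-2 and 14 were at least 2-fold higher in Myelo-2, with a median of -2.58. Ltf had the lowest difference of any gene compared, -11.52. Within the list Ngp followed at -9.85, Mmp8, a collagenase, at -8.08 and Cd177, a neutrophil surface protein, at -6.53. Camp, cathelicidin, had 1.91 to 34670 TPM in Gran-2 cells (median 2356) and 50196 to 108782 TPM in Myelo-2 cells (median 67885). The states did not overlap in Camp, yet its SD over cells was 3.82 log2 units in Gran-2 and 0.33 in Myelo-2. Lcn2, lipocalin 2, which binds iron-carrying siderophores, had 771 to 7942 TPM in Gran-2 cells (median 3788) and 9211 to 26448 TPM in Myelo-2 cells (median 15725). Lcn2 was thus high in both states and separated by a small step, while Ltf and Mmp8 were near 0 in most Gran-2 cells.

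The promoters of 6 of the genes that separated the states without overlap are shown to set the primary granule genes (Elane, Prtn3 and Ctsg) beside genes of the specific granules (Ngp, Lcn2 and Camp). Each window runs 5′ to 3′ on the gene's strand, from 250 bases before the start to 50 after it, as RefSeq gives it on GRCm38.p6. The expression values were made on mm9. Capitals mark matches, on either strand, to TTGCNNAA, a form of the site bound by C/EBP factors, or to GAGGAA, a core that PU.1 and other ETS factors can bind.
Elane, chr10:79886062-79886361, plus strand: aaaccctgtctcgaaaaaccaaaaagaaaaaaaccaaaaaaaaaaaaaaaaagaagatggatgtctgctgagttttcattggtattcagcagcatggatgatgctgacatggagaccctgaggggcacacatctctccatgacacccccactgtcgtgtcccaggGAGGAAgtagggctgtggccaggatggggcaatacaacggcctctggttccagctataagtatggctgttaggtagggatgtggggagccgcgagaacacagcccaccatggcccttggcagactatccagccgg
Prtn3, chr10:79879417-79879716, plus strand: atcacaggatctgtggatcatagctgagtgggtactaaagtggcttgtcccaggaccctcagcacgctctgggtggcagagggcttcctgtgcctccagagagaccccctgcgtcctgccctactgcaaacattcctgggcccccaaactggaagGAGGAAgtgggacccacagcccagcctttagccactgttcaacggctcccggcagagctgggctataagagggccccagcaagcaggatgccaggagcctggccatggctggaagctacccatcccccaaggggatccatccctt
Ctsg, chr14:56102525-56102824, minus strand: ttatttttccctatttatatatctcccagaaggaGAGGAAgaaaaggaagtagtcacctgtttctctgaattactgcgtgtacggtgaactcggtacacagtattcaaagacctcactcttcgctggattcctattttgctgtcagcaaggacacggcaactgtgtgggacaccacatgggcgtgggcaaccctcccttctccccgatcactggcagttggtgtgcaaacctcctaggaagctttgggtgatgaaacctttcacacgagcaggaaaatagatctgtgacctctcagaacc
Ngp, chr9:110419558-110419857, plus strand: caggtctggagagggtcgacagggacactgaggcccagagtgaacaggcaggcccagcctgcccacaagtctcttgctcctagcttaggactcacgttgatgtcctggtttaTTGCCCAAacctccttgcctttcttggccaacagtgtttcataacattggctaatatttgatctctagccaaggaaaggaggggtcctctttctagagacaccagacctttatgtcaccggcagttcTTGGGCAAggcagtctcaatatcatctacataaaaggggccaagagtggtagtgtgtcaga
Lcn2, chr2:32387690-32387989, minus strand: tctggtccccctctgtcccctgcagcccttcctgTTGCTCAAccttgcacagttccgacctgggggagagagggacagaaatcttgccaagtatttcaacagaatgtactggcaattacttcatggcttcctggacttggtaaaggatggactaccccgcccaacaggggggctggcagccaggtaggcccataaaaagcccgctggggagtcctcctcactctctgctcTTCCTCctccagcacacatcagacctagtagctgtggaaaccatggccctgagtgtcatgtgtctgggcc
Camp, chr9:109849407-109849706, minus strand: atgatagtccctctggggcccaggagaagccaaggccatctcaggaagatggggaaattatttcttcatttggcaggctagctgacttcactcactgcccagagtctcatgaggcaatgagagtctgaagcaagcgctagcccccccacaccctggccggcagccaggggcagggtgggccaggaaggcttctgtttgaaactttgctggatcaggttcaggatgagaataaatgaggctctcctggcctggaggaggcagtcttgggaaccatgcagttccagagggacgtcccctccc

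TTGCNNAA occurred in 10.8% of 32851 RefSeq promoter windows and GAGGAA in 28.3%. Ngp held 2 matches to TTGCNNAA, whose first bases lay 138 and 11 bases before the start, and Lcn2 held 1, 216 bases before it. Elane, Prtn3, Ctsg and Camp held 0. GAGGAA was found once each in Ctsg, Elane, Prtn3 and Lcn2, at 216, 85, 95 and 20 bases before the start. Over the specific granule list, 8 of 21 windows (38.1%) held TTGCNNAA and 13 (61.9%) held GAGGAA. Over the primary granule list the counts were 3 of 14 (21.4%) and 7 of 14 (50%). AATCNNNGC, the GFI1 core, was in 10.3% of all windows, 2 specific granule windows and 0 primary granule windows. The motifs do not overlap one another in the printed windows. A match describes letters and not binding, and none of the 3 motifs was compared with the expression values by a test. Elane and Prtn3 are neighbours, with window starts 6645 bases apart.

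S100a8 and S100a9, which together form calprotectin, were abundant in both states. S100a8 had 12898 to 106514 TPM in Gran-2 cells (median 71171) and 106907 to 249455 TPM in Myelo-2 cells (median 141498). The ranges met without overlapping. S100a9 had 10390 to 128118 TPM in Gran-2 cells (median 65646) and 119132 to 229290 TPM in Myelo-2 cells (median 145246), with a small overlap. Of 13 S100 and annexin genes compared, 5 were at least 2-fold higher in Gran-2 and 4 in Myelo-2, beside 51.2% and 2.62% of all genes. Anxa3 stood at 3.98 and Anxa2, which binds membranes and actin, at -2.79. Of 9 gelatinase granule and secretory vesicle genes compared, 3 were at least 2-fold higher in Gran-2 and 5 in Myelo-2. Their median of -1.37 did not keep its sign in every setting. Csf3r, the receptor for G-CSF, stood at 3.08. Itgb2, the beta chain shared by leukocyte integrins, stood at -1.78, and Fpr2, a formyl peptide receptor, was at 0 in all 20 Gran-2 cells and above 10 TPM in 5 of 15 Myelo-2 cells.

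The granule genes took very different shares of the transcripts. The primary granule list held 3.64% to 12.2% of TPM in Gran-2 cells (median 7.90%) and 0.60% to 4.40% in Myelo-2 cells (median 2.24%). Without Lyz1 and Lyz2 it held 2.88% to 12.1% in Gran-2 cells and 0.062% to 1.79% in Myelo-2 cells, with no overlap. The specific granule list held 1.04% to 8.51% in Gran-2 cells (median 3.43%) and 13.1% to 31.5% in Myelo-2 cells (median 24.4%). S100a8 and S100a9 alone held a median of 13.4% in Gran-2 cells and 29.6% in Myelo-2 cells. The 10 highest genes of each cell took 13.9% to 35% of TPM in Gran-2 cells (median 26.1%) and 43.8% to 68.1% in Myelo-2 cells (median 59.2%). TPM is a share of a fixed total, so a high share for some genes lowers that of all others.

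**Figure D3:**
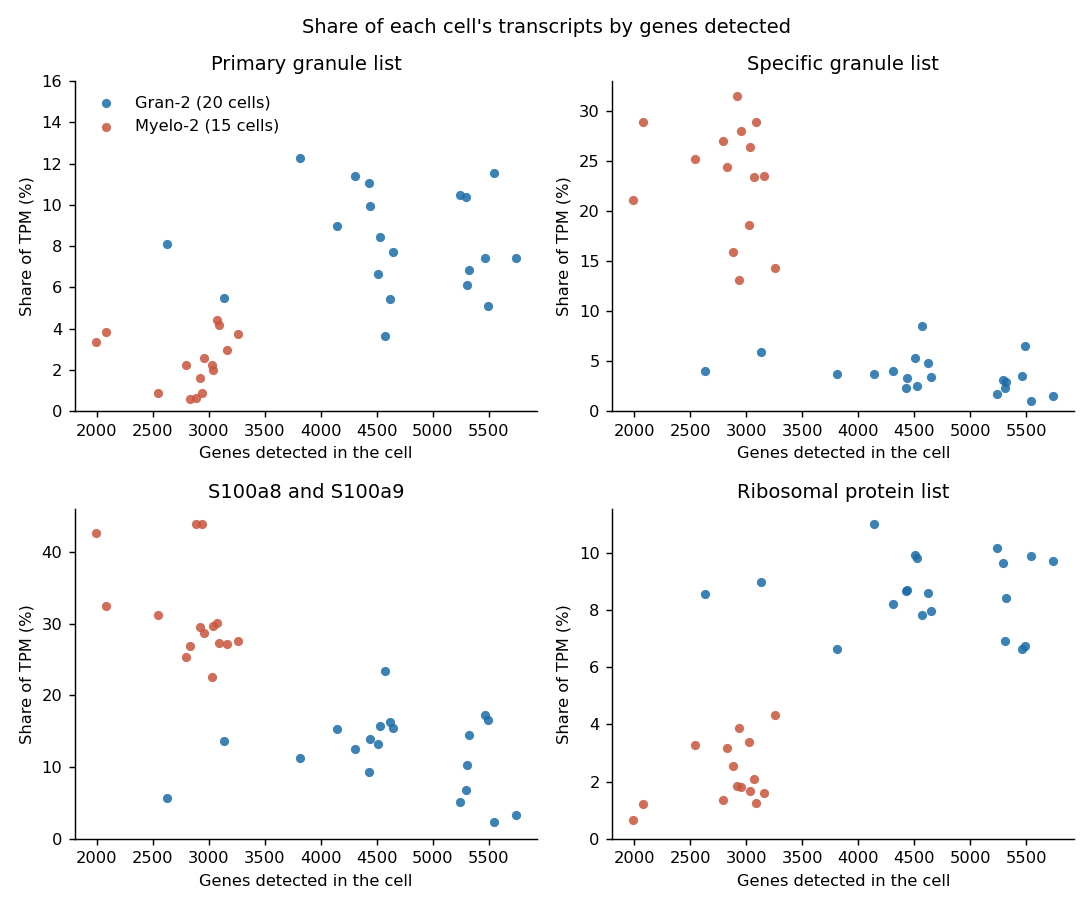
Share of each cell's TPM, in percent, held by 4 gene groups (vertical axes) against the number of genes detected in that cell (horizontal axes), for 20 Gran-2 cells (blue) and 15 Myelo-2 cells (red). The 2 Gran-2 cells with 2629 and 3131 genes keep ribosomal shares of 8.54% and 8.97%, above the Myelo-2 maximum of 4.33%.

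Genes for making protein were higher in Gran-2 as a block. The 56 genes of the ribosomal protein list were each 2-fold or more higher there, with a median of 3.57 against 1.04 for all genes, and the smallest difference was 1.54. The list held 6.63% to 11% of TPM in Gran-2 cells (median 8.63%) and 0.64% to 4.33% in Myelo-2 cells (median 1.84%). These ranges did not overlap. Taken as a share of the TPM outside the granule and S100 lists, ribosomal genes held 8.57% to 15.4% in Gran-2 cells (median 11.6%) and 1.99% to 9.27% in Myelo-2 cells (median 4.98%), with a narrow overlap. Rps6, a small subunit protein, had 700 to 2178 TPM in Gran-2 cells (median 1428) and 3.48 to 583 TPM in Myelo-2 cells (median 330). Rpl13a, of the large subunit, had 589 to 1324 TPM in Gran-2 cells (median 758) and 0 to 393 TPM in Myelo-2 cells (median 69.4). Rpl12 stood highest of the list, at 6.11. Ribosomal protein genes have many processed pseudogenes, with which reads can be shared.

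The steps before and after the ribosome had the same direction. Ribosome biogenesis genes were at least 2-fold higher in Gran-2 in 20 of 23, beside 51.2% of all genes, with a median of 2.23. Among them Nop56, a box C/D particle protein, differed by 5.37, Nhp2, a box H/ACA protein, by 5.31 and Npm1, nucleophosmin, by 3.92. Translation factors were at least 2-fold higher in Gran-2 in 24 of 26, with Eef1g at 5.91 and Eef1b2 at 5.82, both subunits of the elongation factor 1 exchange complex. Aminoacyl-tRNA synthetases were so in 16 of 20, with Farsa, a subunit of the phenylalanine enzyme, at 4.86. In none of these 3 lists was a gene at least 2-fold higher in Myelo-2.

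Folding and degradation genes were similar. All 18 genes of the chaperonin and cytosolic chaperone list were at least 2-fold higher in Gran-2, beside 51.2% of all genes, with a median of 3.91. Hsp90ab1 had 281 to 1768 TPM in Gran-2 cells (median 995) and 0 to 261 TPM in Myelo-2 cells (median 4.03). Cct5, a chaperonin subunit, stood at 5.25 and Hspd1, the mitochondrial chaperonin, at 4.68. Of 21 genes for folding in the endoplasmic reticulum, 20 were at least 2-fold higher in Gran-2, with a median of 3.69. Calr, calreticulin, differed by 6.17, Ssr4, part of the translocon-associated complex, by 6.09 and Hspa5, the chaperone BiP, by 5.13. Proteasome genes were at least 2-fold higher in Gran-2 in 29 of 30, led by Psma5 at 6.70.

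Mitochondrial and metabolic genes followed. Oxidative phosphorylation genes were at least 2-fold higher in Gran-2 in 28 of 30 (median 3.07), TCA cycle genes in 17 of 18 (median 2.75) and nucleotide synthesis genes in 18 of 22 (median 2.34). Ndufa9, of respiratory complex I, stood at 6.10 and Mdh1, cytosolic malate dehydrogenase, at 6.08. The oxidative phosphorylation list held 1.04% to 1.84% of TPM in Gran-2 cells (median 1.43%) and 0.30% to 0.96% in Myelo-2 cells (median 0.58%), with no overlap. As a share of TPM outside the granule and S100 lists it held 1.41% to 2.41% in Gran-2 cells and 0.89% to 2.11% in Myelo-2 cells, and the ranges then overlapped widely. Glycolytic genes were at least 2-fold higher in Gran-2 in 12 of 16 (median 1.86), beside 51.2% of all genes. Slc2a3, a glucose transporter, was the 1 gene of that list at least 2-fold higher in Myelo-2, at -1.09.

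**Figure D4:**
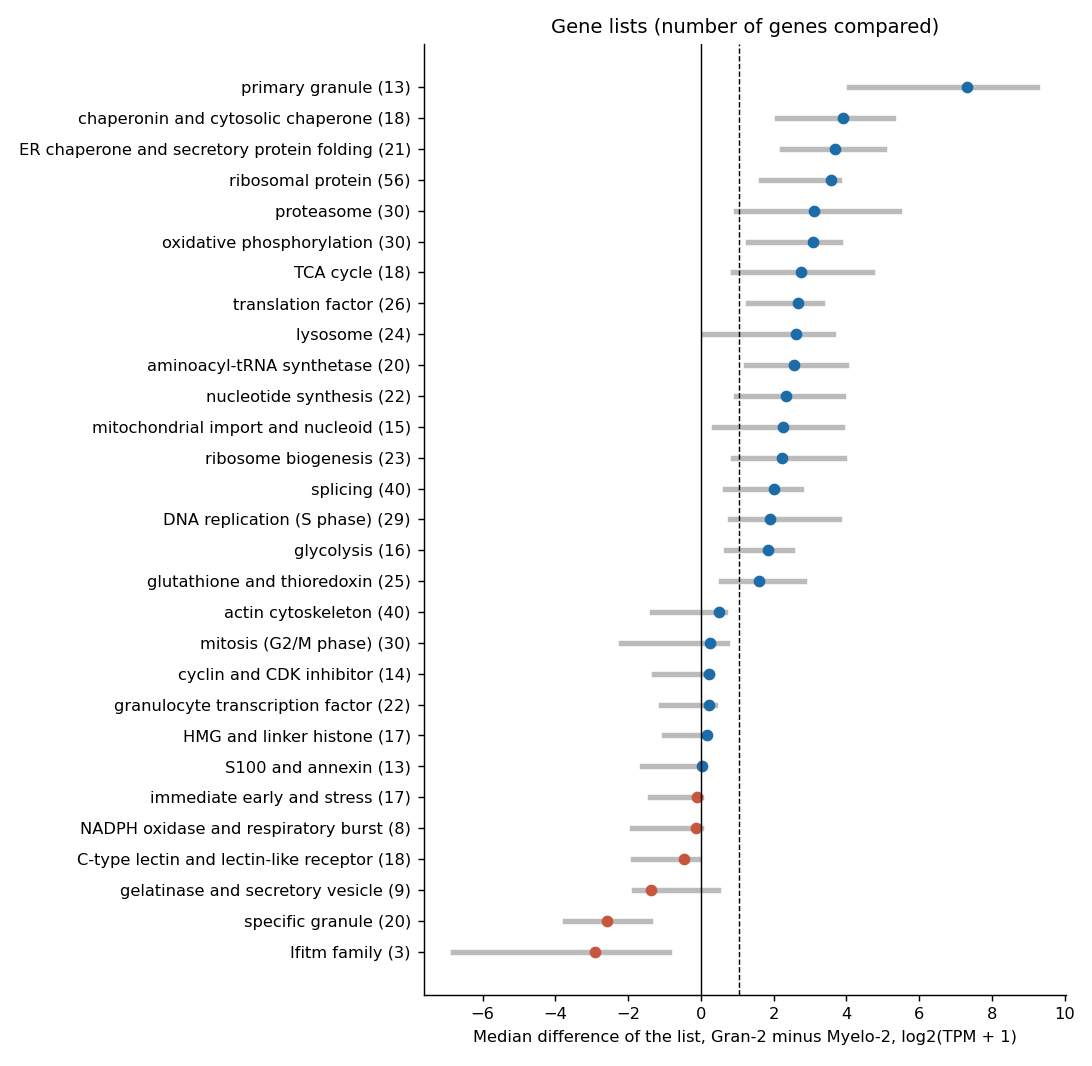
Median difference of 29 gene lists, Gran-2 minus Myelo-2, in log2(TPM + 1), with the number of genes compared in brackets. Points are the medians over all cells, blue above 0 and red below it, and grey bars the range over that value and 12 alternative settings. The solid line is 0 and the dashed line the median of all genes, 1.04. Primary granule genes stand at 7.33, mitosis genes at 0.26 and specific granule genes at -2.58.

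Outside the granule, S100 and annexin lists, the gene with the highest difference was Nkg7 at 8.17, a membrane protein of granule-bearing cells. It had 365 to 9611 TPM in Gran-2 cells (median 4576) and 0 to 1552 TPM in Myelo-2 cells (median 2.31). Lgals1, galectin 1, followed at 7.83. Nme1 and Nme2, neighbouring and closely related nucleoside diphosphate kinases, stood at 7.62 and 6.29. Mif, a cytokine with tautomerase activity, had 1.26 to 981 TPM in Gran-2 cells (median 279) and was above 0 in 1 of 15 Myelo-2 cells, at 25 TPM. Fdps, which makes farnesyl diphosphate for sterols and protein prenylation, differed by 7.03. Insig1, which restrains sterol synthesis, was above 0 in all 20 Gran-2 cells and in 1 Myelo-2 cell. Mt1, metallothionein, stood at 6.88, Ly6e, a GPI-anchored protein, at 6.83 and Txn2, mitochondrial thioredoxin, at 6.53. The Mif, Nme1 and Txn2 levels of most Myelo-2 cells were 0.

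Of the 7334 genes compared, those above 0 in at least 80% of Gran-2 cells and 0 Myelo-2 cells numbered 5: Bax, Commd4, Rtcb, Afap1 and Wdr12. Bax, which promotes cell death at the mitochondrion, was above 0 in 17 of 20 Gran-2 cells (85%, exact 95% interval 62.1 to 96.8) and in 0 of 15 Myelo-2 cells. Taking 3 cells as the limit for a count of 0, that allows up to 20%, and the exact interval reaches 21.8%. Its median in Gran-2 cells was 112 TPM. Ear2, an eosinophil-associated ribonuclease, was the 1 gene above 0 in 0 Gran-2 cells, for which the same limits are 15% and 16.8%, and in at least 50% of Myelo-2 cells. It was above 0 in 10 of 15 of them (66.7%, exact interval 38.4 to 88.2), with up to 2079 TPM. These intervals and limits cover counting error only. They leave out that Bax and Ear2 were picked from all genes compared by these same counts. Ear2 belongs to a family of close copies whose reads can be shared.

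Outside the same lists, the genes with the lowest differences included surface receptors and secreted proteins. Ifitm6, of the interferon-induced transmembrane family, had 0 to 292 TPM in Gran-2 cells (median 0) and 0 to 3241 TPM in Myelo-2 cells (median 1089), a difference of -6.71. It was above 10 TPM in 3 Gran-2 and 12 Myelo-2 cells. Itgb2l, an integrin beta chain like Itgb2, stood at -6.43 and Chil1, a chitinase-like secreted protein, at -5.55. Plbd1, a phospholipase B-like protein, stood at -4.36 and Lgals3, galectin 3, at -4.13. The receptor genes Cd300lf, Gp49a and Pirb stood at -4.18, -3.52 and -3.04, and Alox5, which starts leukotriene synthesis, at -2.65. Gp49a and Pirb have near-identical relatives that can share reads. Over 18 lectin and lectin-like receptors compared, 5 were at least 2-fold higher in Gran-2 and 6 in Myelo-2, with a median of -0.47. Ifitm3 was lower in Gran-2 too, at -2.91, while Ifitm2 stood at 0.69, a sign that turned under 3 alternative settings.

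Subunits of the respiratory burst oxidase differed too. Cybb, the catalytic subunit, had 0.11 to 642 TPM in Gran-2 cells (median 106) and 103 to 1939 TPM in Myelo-2 cells (median 738), a difference of -3.09. Ncf1, the cytosolic p47phox subunit, stood at -2.23. Ncf4, p40phox, stood at 1.15, which turned negative in 3 settings. Cd52, a GPI-anchored surface peptide named here after its values were seen, had 1.26 to 1432 TPM in Gran-2 cells (median 436) and 194 to 4193 TPM in Myelo-2 cells (median 1328).

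Actin genes did not follow the majority. Of 40 compared, 10 were at least 2-fold higher in Gran-2 and 1 in Myelo-2, with a median of 0.51 that turned negative in 4 of 12 settings. The 1 was Gsn, gelsolin, which severs actin filaments, at -2.82. Actb, beta actin, also named after its values were seen, had 8134 to 25238 TPM in Gran-2 cells (median 14519) and 15567 to 35608 TPM in Myelo-2 cells (median 21851), a difference of -0.56. The list held 2.55% to 5.50% of TPM in Gran-2 cells and 3.31% to 6.39% in Myelo-2 cells, which overlapped. As a share of TPM outside the granule and S100 lists it held 3.41% to 7.02% in Gran-2 cells (median 5.13%) and 7.82% to 19.9% in Myelo-2 cells (median 10.9%). On that scale the states did not overlap, with Myelo-2 the higher. The share is a sum over the list, and gene by gene, before this rescaling, only 1 of the 40 was at least 2-fold higher in Myelo-2.

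Cell cycle genes fell into groups that behaved differently. Of 29 DNA replication genes compared, 26 were at least 2-fold higher in Gran-2 and 0 in Myelo-2, with a median of 1.91. Mcm3 and Mcm5, of the replicative helicase, stood at 3.78 and 3.51, Dut, which removes dUTP, at 3.59 and Rpa2, a single-strand binding protein, at 3.56. At least 15 of these genes were above 1 TPM in 17 of 20 Gran-2 cells and 4 of 15 Myelo-2 cells. Of 30 mitosis genes, 9 were at least 2-fold higher in Gran-2, 3 in Myelo-2 and 18 within, with a median of 0.26. Aurkb, a mitotic kinase, stood at 2.83, Mki67, the Ki-67 antigen, at -1.23 and Smc2, a condensin subunit, at -1.26. At least 10 mitosis genes were above 1 TPM in 15 of 20 Gran-2 and 13 of 15 Myelo-2 cells. The mitosis median was below the median of all genes, and it turned negative in 7 of 12 alternative settings.

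The mitosis list varied widely within each state. Its mean over genes ran from 0.78 to 6.44 log2 units in Gran-2 cells (median 3.91) and from 0.05 to 4.87 in Myelo-2 cells (median 3.60). In Gran-2 it was higher in cells with more genes detected (Pearson's r = 0.61, Spearman's rho = 0.78 over 20 cells of 1 sort). In Myelo-2 the same relation had r = 0.74 and rho = 0.33 over 15 cells. Mitosis genes are themselves counted among the genes detected, so the 2 measures are not independent. Myelo-2 cells 59 and 96, which had the fewest genes (1993 and 2082), stood at 0.05 and 0.08 and were also near 0 for the replication list. The replication mean ran from 1.94 to 6.52 in Gran-2 cells (median 4.24) and from 0.04 to 4.12 in Myelo-2 cells (median 1.98). Cdk4, the cyclin D kinase, stood at 6.04, while Cdkn2c, an inhibitor of Cdk4 and Cdk6, stood at -2.38 and E2f8, a repressing E2F, at -2.23. Cdkn2c was above 0 in 1 of 20 Gran-2 and 7 of 15 Myelo-2 cells.

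**Figure D5:**
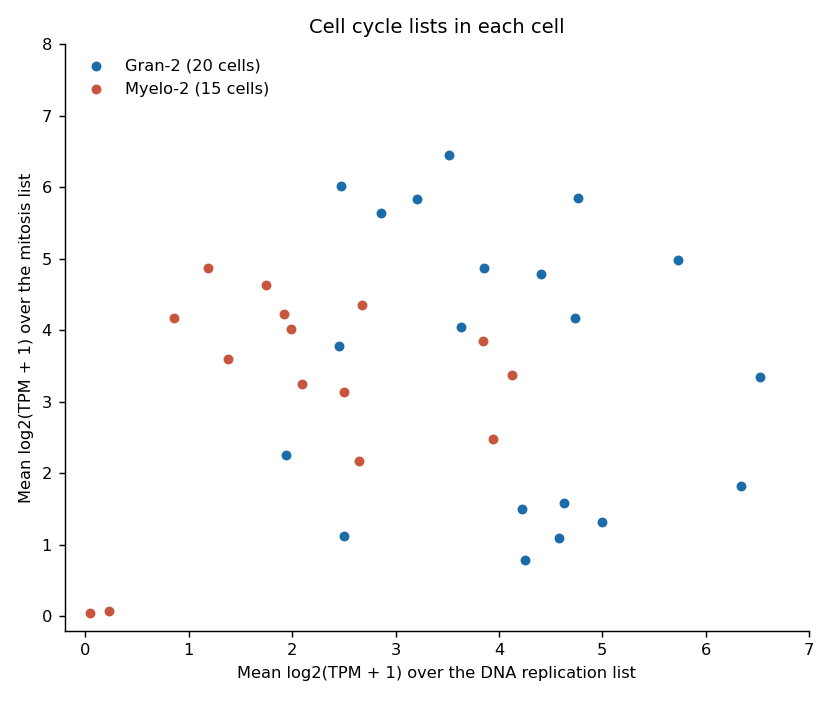
Mean log2(TPM + 1) of the mitosis list (vertical axis) and of the DNA replication list (horizontal axis) in each of 20 Gran-2 cells (blue) and 15 Myelo-2 cells (red). Mitosis means of Myelo-2 cells lie within the Gran-2 range except for 2 cells near 0, whereas most Gran-2 cells lie to the right of most Myelo-2 cells.

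Transcription factor genes of the granulocyte lineage went both ways. Of 22 compared, 5 were at least 2-fold higher in Gran-2 and 7 in Myelo-2, beside 51.2% and 2.62% of all genes. Their median of 0.21, below the 1.04 of all genes, turned negative in 6 settings. Gfi1, the mutated gene, had 0.35 to 545 TPM in Gran-2 cells (median 135) and 0 to 585 TPM in Myelo-2 cells (median 0), a difference of 3.32. It was above 10 TPM in 16 of 20 Gran-2 and 5 of 15 Myelo-2 cells. A stop codon mutation need not change the transcript level, so the level does not check the genotype. Per3, a period clock gene, stood at 4.25, Myb, a progenitor factor, at 3.87 and Myc, a growth-promoting activator, at 3.17. Myc was above 10 TPM in 9 Gran-2 and 0 Myelo-2 cells. Lmo4, a LIM adaptor, stood at -2.85, Klf2, a quiescence-linked Kruppel-like factor, at -2.58 and Id2, an inhibitor of E proteins, at -2.25.

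The C/EBP factors drive many granule genes. Cebpe, needed for specific granule genes, had 0 to 371 TPM in Gran-2 cells (median 104) and 0 to 756 TPM in Myelo-2 cells (median 39.7). Its difference of 0.82 turned negative in 3 settings. Cebpa was above 0 in 9 of 20 Gran-2 cells (45%, exact 95% interval 23.1 to 68.5) and 1 of 15 Myelo-2 cells (6.67%, 0.17 to 31.9). Irf8, a monocyte-lineage factor, was above 0 in 3 of 20 Gran-2 cells and 0 of 15 Myelo-2 cells.

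Surface genes linked to progenitors and to the sort were also compared. Itgam, which encodes CD11b, had 0 to 319 TPM in Gran-2 cells (median 3.18) and 6.13 to 780 TPM in Myelo-2 cells (median 91.9), a difference of -3.02. It was above 0 in 13 of 20 Gran-2 cells and 15 of 15 Myelo-2 cells, although all were sorted as CD11b+. Kit, which encodes CD117, was above 0 in 12 of 20 Gran-2 cells (60%, exact 95% interval 36.1 to 80.9) and 3 of 15 Myelo-2 cells (20%, 4.33 to 48.1). Cd34 was above 10 TPM in 6 Gran-2 and 0 Myelo-2 cells. Of 17 cytokine receptor genes compared, 9 were at least 2-fold higher in Gran-2 and 0 in Myelo-2, a share near the 51.2% of all genes, with a median of 1.27. Ifngr1, an interferon gamma receptor chain, stood at 5.33. Fcgr3, an IgG receptor, stood at 5.60. Of 10 Fc and complement receptor genes compared, 3 were at least 2-fold higher in Gran-2 and 4 in Myelo-2, with a median of 0.37. The shares of all genes were 51.2% and 2.62%. Of 19 integrin and adhesion genes compared, 10 were at least 2-fold higher in Gran-2 and 5 in Myelo-2, beside 51.2% and 2.62% of all genes. Their median of 1.01 was close to that of all genes, but the share higher in Myelo-2 was above that of all genes. Among them Emb (embigin), Vcam1 and Icam2 stood at 4.92, 4.63 and 4.63, and Itgam was the lowest. Of 17 BCL2 family and caspase genes compared, 10 were at least 2-fold higher in Gran-2 and 0 in Myelo-2, a median of 1.09 that was close to that of all genes. Bax stood at 5.98, Bad at 2.96 and Casp1 at 2.81, and Trp53, which encodes p53, at 4.75. Of 7 p53 target genes compared, Bax among them, 3 were at least 2-fold higher in Gran-2 and 2 in Myelo-2. Their median of 0.67 was below that of all genes.

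Marker lists of other cell types were partly detected. Of 12 erythroid genes 9 were at 0 in all 35 cells, the globins among them, and the list summed to 0 to 569 TPM in Gran-2 cells and 0 to 83.6 TPM in Myelo-2 cells. Only Tfrc of this list was detected in enough cells to be compared, and it stood at 1.79. Of 10 megakaryocyte genes 7 were at 0, Pf4 and Itga2b among them, and the sum was 32.3 to 633 TPM in Gran-2 cells and 0 to 468 TPM in Myelo-2 cells. The 1 member with a median above 1 TPM in either state was Fli1. It was above 10 TPM in 20 of 20 Gran-2 and 13 of 15 Myelo-2 cells. Of 9 B cell genes 6 were at 0, Cd79a among them, while Cd79b was above 0 in 5 Gran-2 cells and 1 Myelo-2 cell, and the sum reached 125 TPM in Gran-2 and 64.8 TPM in Myelo-2. Of 9 eosinophil genes 5 were at 0, Epx and Prg3 among them. Their sum was 0 to 454 TPM in Gran-2 cells and 0 to 2088 TPM in Myelo-2 cells, and Ear2 alone reached 2079 TPM in Myelo-2. Of 11 macrophage genes 6 were at 0, C1qa among them, and the sum was 0 to 1451 TPM in Gran-2 cells and 0 to 615 TPM in Myelo-2 cells, led by Vcam1. Of 11 dendritic cell genes 7 were at 0, and the sum was 0 to 632 TPM in Gran-2 cells and 0 to 1312 TPM in Myelo-2 cells, led by Id2. Of 16 monocyte genes 1 was at 0 in all 35 cells, and their sum ran from 1728 to 19587 TPM in Gran-2 cells and from 277 to 4750 TPM in Myelo-2 cells. Much of it was Ly6c2, which had a median of 7277 TPM in Gran-2 cells and 2182 TPM in Myelo-2 cells. Of 10 T and NK cell genes 6 were at 0, Cd3e among them, and their sum ran from 365 to 9612 TPM in Gran-2 cells and from 0 to 1552 TPM in Myelo-2 cells, led by Nkg7. Of 9 basophil and mast cell genes 4 were at 0, Fcer1a and Cma1 among them, and the sum was 87.5 to 1698 TPM in Gran-2 cells and 0 to 513 TPM in Myelo-2 cells. It was led by Hdc, histidine decarboxylase, which differed by 5.76. The part of cells of other types in the differences was not tested.

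Within the states the cells were graded. Of the 15 Myelo-2 cells, 10 had under 10 TPM of Elane, cells 52, 67, 75 and 80 had 7821, 1537, 1704 and 2973 TPM, and cell 91 had 999 TPM. Prtn3 was above 100 TPM in the same 4 cells and in cell 69. Cells 52 and 80 also had the lowest Ltf of the state (618 and 49.6 TPM) and the lowest Ngp (17182 and 23797 TPM). Specific granule genes also varied among Gran-2 cells. Camp was above 1000 TPM in 12 of 20 and Ngp in 4, cells 55, 58, 71 and 87, all of them among the 12. Ltf was above 10 TPM in cell 58 alone, at 141 TPM, and Mmp8 in 5 cells.

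No single Gran-2 cell held the highest value of every specific granule gene. Cell 58 had the highest Ltf (141 TPM), Ngp (4092 TPM) and Cd177 (1461 TPM) of its state. Cell 71, with Ltf and Cd177 at 0, had the lowest Elane (15870 TPM), Mpo (1382 TPM) and Ctsg (168 TPM) of its state, and the highest Camp (34670 TPM), Mmp8 (1240 TPM) and S100a8 and S100a9 share (23.5%). In cell 71 the ribosomal share of 7.82% was far above the Myelo-2 maximum of 4.33%, and the 4571 genes detected were close to the Gran-2 median. Across the 20 Gran-2 cells the primary granule share was lower in cells with a higher S100a8 and S100a9 share (Pearson's r = -0.58, Spearman's rho = -0.57). Camp and Ngp went together in Gran-2 (r = 0.62, rho = 0.67) and not in Myelo-2 (r = -0.0033, rho = -0.036 over 15 cells). These are descriptions of cells that share a sort, and TPM shares of 1 cell are tied to each other.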

How the data were processed

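The table holds 23956 genes in 92 cells, sequenced as 150 bp paired-end reads per the labels. The values are log2(TPM + 1), deposited by the authors. Bowtie2, RSEM and mm9 are named in the submitters' processing notes. Versions, settings and the way states were assigned: not given in the sources used here. TPM summed to 1000000 in each cell once the Ly6g row, which lies outside that total, was left out.

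Each gene detected (above 0) in 25% or more of Gran-2 or of Myelo-2 cells was compared as the Gran-2 minus Myelo-2 difference of mean log2(TPM + 1), with 1 log2 unit (2-fold) as the size rule. The pseudocount of 1 understates differences of low genes. Lists were described by counts and medians. For shares of cells, Clopper-Pearson 95% intervals are exact. The contrast code was tested on simulated data. Python 3.11.15, pandas 2.3.3, numpy 2.4.6, scipy 1.17.1 and matplotlib 3.10.9 were used.

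Genes to name were the state markers, the 15 highest and 15 lowest differences with and without the granule lists, up to 4 genes a list, and genes whose cells did not overlap. Members and the 68 gene lists were chosen with earlier results of these data known. Alternatives changed the pseudocount, the filter, the average, the scaling and the cells, and 2 of them were chosen after seeing the data.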

Additional observations from a re-analysis of the deposited data

How the results depend on the processing

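The 3756 genes higher in Gran-2 and 192 higher in Myelo-2, with a median of all genes of 1.04, depended on the setting. With a pseudocount of 0.1 there were 312 higher in Myelo-2 and a median of 1.76, and with a pseudocount of 10 there were 1744, 86 and 0.44. The median was 0.50 with no filter, 1.56 for genes in at least 50% of cells and 0.16 for medians over cells. The log2 of mean TPM gave 798 genes higher in Myelo-2, and TPM rescaled outside the granule and S100 lists gave 361. Equal medians of widely detected genes gave 2468, 768 and 0.53. The 5 against 5 cells nearest in genes detected gave 2251, 1117 and 0.49, equal genes per cell gave 1752 and 620, and the 2 Gran-2 cells within the Myelo-2 range gave 2194, 1384 and 0.15. Rescaling left 3 genes without overlap higher in Gran-2 and 8 higher in Myelo-2. Above 1 TPM rather than 0, Ltf was found in 15% of Gran-2 cells and Cd34 in 0% of Myelo-2 cells. The cause of these shifts was not tested.

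Of 39 lists with a median of at least 1 log2 unit, 13 changed sign in some setting, as listed here, and so did 17 of 22 lists with a smaller median, mitosis in 7 settings. Gelatinase granules stood at 0.47 for genes in at least 50% of cells, 0.24 for 5 against 5 cells and 0.13 without the 2 Myelo-2 cells with the fewest genes. Equal medians gave pentose phosphate -0.24, tubulin -0.45, Ly6 and GPI-anchored -0.99 and iron -0.40. The 5 against 5 cells gave fatty acid -0.20, tubulin -0.61, interferon -0.086 and integrin -0.18, and equal genes per cell gave glycogen -0.84. The 2 Gran-2 cells in range gave stem -0.053, pentose phosphate -1.26, interferon -0.99, integrin -0.27, cytokine receptor -0.43, pattern recognition -0.93, Ly6 and GPI-anchored -0.26 and sort gate -0.60. Ncf4 stood at -0.13 for mean TPM, -0.77 for equal medians and -1.90 for 5 against 5 cells. Primary granule (4.08 to 9.24), specific granule (-3.74 to -1.40) and ribosomal medians (1.64 to 3.81) kept their sign in all 12 alternatives. No paired analysis was possible because both states are cells of 1 sort and cell numbers pair nothing. Genes detected limits every absence: a gene at 0 in a Myelo-2 cell may have been missed.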

Other observations

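Genes often used as references did not agree on 1 level. Of 14 compared, 11 were at least 2-fold higher in Gran-2 and 0 in Myelo-2, beside 51.2% and 2.62% of all genes. Hprt had a median of 478 TPM in Gran-2 cells and 0.54 TPM in Myelo-2 cells, a difference of 5.94. Eef1a1 had 5578 TPM in Gran-2 cells and 786 TPM in Myelo-2 cells, a difference of 3.11, while Actb stood at -0.56.

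Chromatin and stress genes were mixed. Of 23 chromatin modifier genes, 10 were at least 2-fold higher in Gran-2 and 0 in Myelo-2, beside 51.2% and 2.62% of all genes. Their median of 0.74, below the 1.04 of all genes, turned negative in 3 settings. Of 17 HMG and linker histone genes, 6 were at least 2-fold higher in Gran-2 and 2 in Myelo-2, and their median of 0.16 turned negative in 6 settings. They ran from Hist1h1e, a linker histone, at -2.52 to Hmga1, an architectural protein, at 5.50. Of 17 immediate early and stress genes, 1 was at least 2-fold higher in Gran-2 and 5 in Myelo-2. Dusp1, a MAP kinase phosphatase, was the lowest of them at -2.55, above 10 TPM in 8 Gran-2 and 11 Myelo-2 cells.

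The 3 Myelo-4 cells of the same sort resembled Myelo-2 in the state markers, with Elane at 2.16 to 7.48 TPM and Ltf at 6373 to 25772 TPM. The 3 Myelo-1 cells held Elane at 14237 to 18946 TPM with Camp at 16813 to 54953 TPM and Ltf at 0 to 0.17 TPM, a combination near that of Gran-2 cell 71.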
